A study of Mus musculus with 36 samples.

Results

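The interferon response genes are 44 mouse genes whose transcripts rise when a cell senses interferon or foreign nucleic acid. They were chosen by symbol: each row of the deposited count table whose Ensembl gene ID maps to one of the 44 listed symbols is a member. All 44 symbols were found among the 49585 gene IDs of the table, and all 44 passed the filter on low counts that left 20009 genes for testing. Their levels were followed in neoplastic cells sorted by EGFP from 36 mouse lung tumours. All 36 tumours were driven by an EML4-ALK fusion, a kinase oncogene of human lung adenocarcinoma, either as Variant 1 or as Variant 3, the shorter of these fusion proteins. Each variant was combined with the guide sgNeo, the control, or with sgSetd2, which targets Setd2, an enzyme that methylates histone H3 at lysine 36, so that the 4 groups were Variant 1 sgNeo, Variant 1 sgSetd2, Variant 3 sgNeo and Variant 3 sgSetd2. Strain, sex and age are not given in the labels. Each group held 9 tumours under 3 title codes (CE467, CE468 and CE472; CE475, CE479 and CE483; CE428, CE429 and CE433; CE450, CE454 and CE456, in the order of the groups above), with 3 tumours per code. Since no label explains the codes, counts were added up within each code and n is 3 codes per group. p-values therefore measure only the spread between codes.

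In the textbook pathway, a cell that finds viral RNA or misplaced DNA activates IRF3 and IRF7, which switch on the interferon genes. Secreted type I interferon binds its receptor on the same cell or its neighbours, and JAK kinases then activate a complex that contains STAT2 and IRF9 and binds the interferon-stimulated response element (ISRE) of its target promoters. Interferon gamma acts through another promoter element, GAS, and induces IRF1 and many GTPases. The members were grouped by role into 4 transcription factors, 17 genes of the ISG15, IFIT and other effector group, 6 genes of the OAS family, 8 RNA and DNA sensors with their adaptor and editing enzyme, 6 interferon-inducible GTPases, and 3 genes of the PARP and DTX3L group. RNA from sorted bulk cells is an average, so fewer responding cells and less RNA per responding cell cannot be told apart.

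The promoters show what the members share beyond their names. Of the 44 members, 33 were found in the RefSeq promoter table (GRCm38.p6), which gives 250 bases before and 50 bases after each start site. The ISRE core GAAANNGAAA, searched on both strands, was present in a promoter of 18 of these 33 members (54.55%) and of 1079 of all 27025 genes in the table (3.993%). The GAS core TTCNNNGAA, also searched on both strands, was present in 9 of 33 members (27.27%) and in 9.554% of all genes. The 6 promoters below belong to members described in the next paragraphs. Capitals mark the ISRE core, on either strand, and Irf7 is printed as a window with no such match. Of the 9 members in the table that passed the test described below, 4 had no ISRE core in this window, namely Irf7, Cmpk2, Xaf1 and Oasl2.
Isg15 (chr4:156200769-156201068, minus strand): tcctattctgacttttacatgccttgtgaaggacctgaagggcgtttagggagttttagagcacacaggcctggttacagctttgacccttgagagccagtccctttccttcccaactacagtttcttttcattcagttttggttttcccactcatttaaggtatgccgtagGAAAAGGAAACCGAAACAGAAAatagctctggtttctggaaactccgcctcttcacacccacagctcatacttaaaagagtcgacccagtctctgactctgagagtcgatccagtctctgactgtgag
Oas1a (chr5:120907476-120907775, minus strand): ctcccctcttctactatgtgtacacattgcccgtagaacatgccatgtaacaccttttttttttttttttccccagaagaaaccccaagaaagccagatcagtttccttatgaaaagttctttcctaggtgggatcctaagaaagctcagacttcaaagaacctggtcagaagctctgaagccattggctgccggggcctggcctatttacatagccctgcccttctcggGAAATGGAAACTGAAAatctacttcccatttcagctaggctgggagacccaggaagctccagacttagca
Oas1g (chr5:120887564-120887863, minus strand): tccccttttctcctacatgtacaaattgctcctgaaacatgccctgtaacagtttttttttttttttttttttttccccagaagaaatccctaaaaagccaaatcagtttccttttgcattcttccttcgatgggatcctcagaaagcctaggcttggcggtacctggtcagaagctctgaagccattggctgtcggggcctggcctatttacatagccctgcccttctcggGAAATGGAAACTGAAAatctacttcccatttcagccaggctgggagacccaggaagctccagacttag
Ddx58 (chr4:40239776-40240075, minus strand): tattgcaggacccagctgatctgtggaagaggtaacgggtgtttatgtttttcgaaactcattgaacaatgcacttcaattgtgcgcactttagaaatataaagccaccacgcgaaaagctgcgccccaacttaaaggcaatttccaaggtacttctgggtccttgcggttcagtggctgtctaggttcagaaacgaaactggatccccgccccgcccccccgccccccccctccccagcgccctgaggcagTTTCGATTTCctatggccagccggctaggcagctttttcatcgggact
Gbp7 (chr3:142530086-142530385, plus strand): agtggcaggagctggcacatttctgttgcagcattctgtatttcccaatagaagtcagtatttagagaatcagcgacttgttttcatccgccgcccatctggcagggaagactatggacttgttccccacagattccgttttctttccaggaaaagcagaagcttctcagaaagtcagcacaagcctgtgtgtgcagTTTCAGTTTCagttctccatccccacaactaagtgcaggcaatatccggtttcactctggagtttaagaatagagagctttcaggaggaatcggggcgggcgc
Irf7 (chr7:141266375-141266674, minus strand): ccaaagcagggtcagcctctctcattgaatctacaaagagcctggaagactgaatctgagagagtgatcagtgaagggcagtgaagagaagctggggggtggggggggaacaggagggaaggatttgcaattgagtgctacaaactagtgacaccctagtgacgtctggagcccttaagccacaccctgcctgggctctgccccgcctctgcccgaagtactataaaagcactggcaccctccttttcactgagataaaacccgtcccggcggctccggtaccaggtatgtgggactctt
Counting the start site as 0, the first letters of the overlapping Isg15 matches lay at -78, -72 and -66. The matches of Oas1a began at -20 and -14 and those of its neighbour Oas1g at -18 and -12, and the Gbp7 match began at -53. In Ddx58 the match began at 2, downstream of the start. A match is only a description of these letters and does not show that a factor binds there.

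The libraries were deep, with 17.9 to 137.2 M counts per tumour and a median of 40.7 M. Setd2 itself was measured at 67.7 ± 12.8 CPM (library-size normalised read count after TMM scaling, SD, n = 3 codes) in Variant 1 sgNeo and 37.4 ± 2.52 CPM in Variant 1 sgSetd2. In Variant 3 it was 54.6 ± 10.3 CPM with sgNeo and 45.7 ± 13.2 CPM with sgSetd2, where the codes of the guides overlapped. The averaged log2 difference of Setd2 was -0.56 with SE 0.15 and an adjusted p of 0.0501 (edgeR), so the mRNA level did not pass the test. The labelled epithelial identity was present, since surfactant gene Sftpc alone reached group means of 83599 to 116565 CPM. T and NK cell markers were nearly absent, with 12 of 13 below a mean of 0.1 CPM.

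Over both variants, members from 4 of the 6 roles were higher in sgSetd2 than in sgNeo tumours. With edgeR's quasi-likelihood test and Benjamini-Hochberg adjustment over the 20009 genes, 13 of 44 members rose and 0 fell at an adjusted p under 0.05 in the contrast averaged over the variants. Among all genes tested, 3.72% rose. The members had been chosen with earlier results of these data known. The median log2 fold change of the 44 members was 0.78, against 0.01 for all genes tested, and 41 of 44 members had a positive value. The members that rose were Irf7 and Stat2 among the transcription factors; Isg15, Cmpk2, Ifi27, Xaf1 and Rtp4 among the effectors; Oas1a, Oas1g and Oasl2 in the OAS family; and Ddx58, Dhx58 and Zbp1 among the sensors. None of the 6 GTPases and none of the 3 genes of the PARP and DTX3L group passed.

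**Figure D1:**
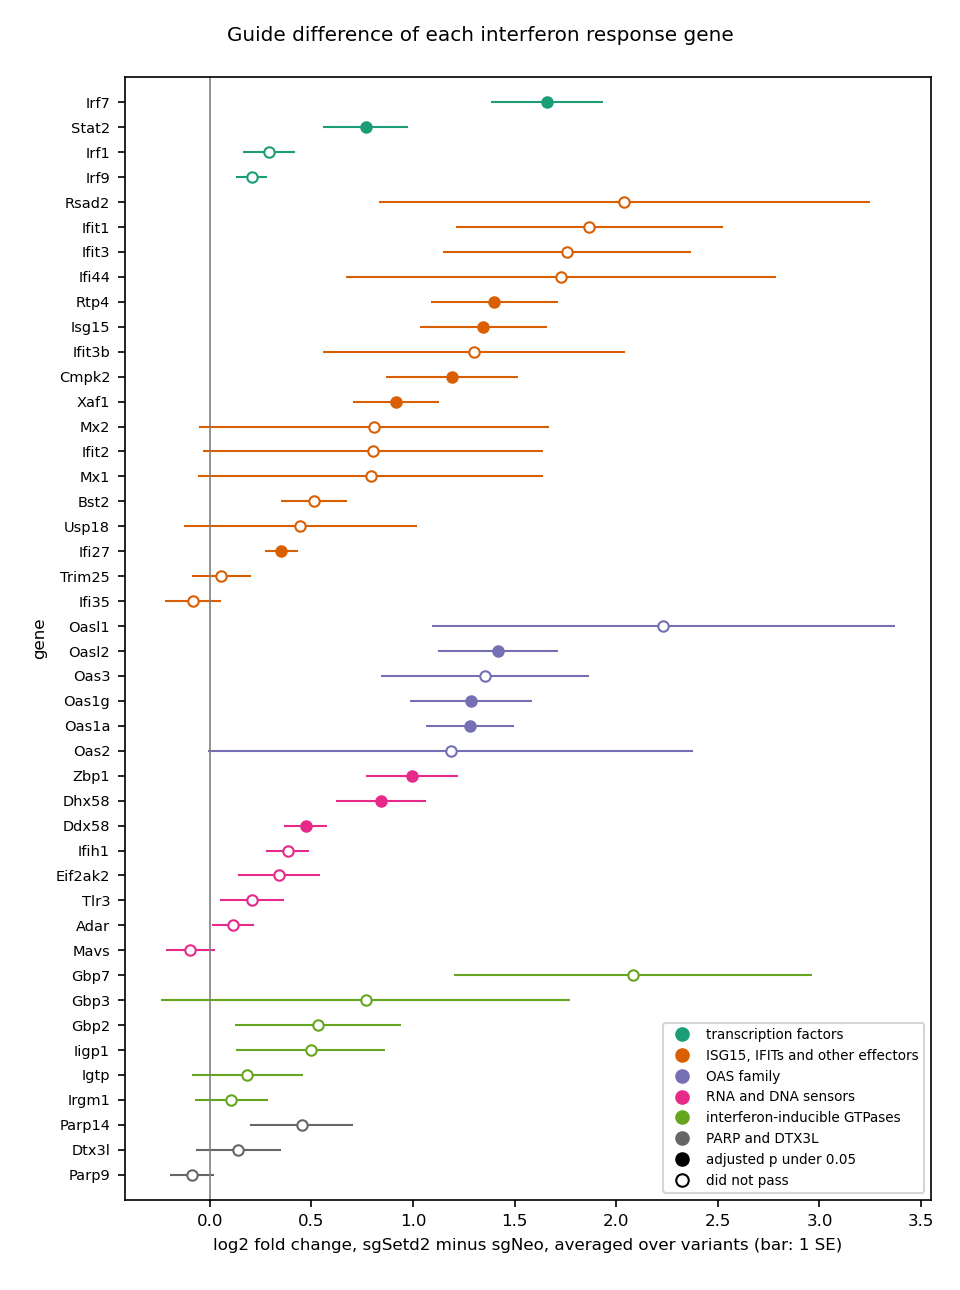
Log2 fold change of each of the 44 members (sgSetd2 minus sgNeo, averaged over the variants), grouped by role, with bars of 1 SE from the edgeR fit. Filled points passed an adjusted p of 0.05; 13 are filled, all to the right of 0, and several members with larger fold changes, such as Oasl1 at 2.23 and Rsad2 at 2.04, have wide bars and are open.

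Within each variant the same test called few members. In Variant 1 it called 1 member, Irf7, where 0.7% of all genes rose, and in Variant 3 it called 1 member, Oas1a, where 0.88% rose. The median log2 fold change of the members was 0.95 in Variant 1 and 0.53 in Variant 3, against -0.01 and 0.02 for all genes. In Variant 1, 40 of 44 members had a positive value, and in Variant 3, 36 of 44. A simpler count asks whether the lowest sgSetd2 code lay above the highest sgNeo code. That held for 26 of 44 members in Variant 1, beside 11.7% of all genes, and for 12 members in Variant 3, beside 10% of all genes. It held in both variants at once for 8 members, Irf7, Stat2, Ifi27, Rtp4, Oas1a, Oas1g, Oasl2 and Zbp1, beside 3.5% of all genes.

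**Figure D2:**
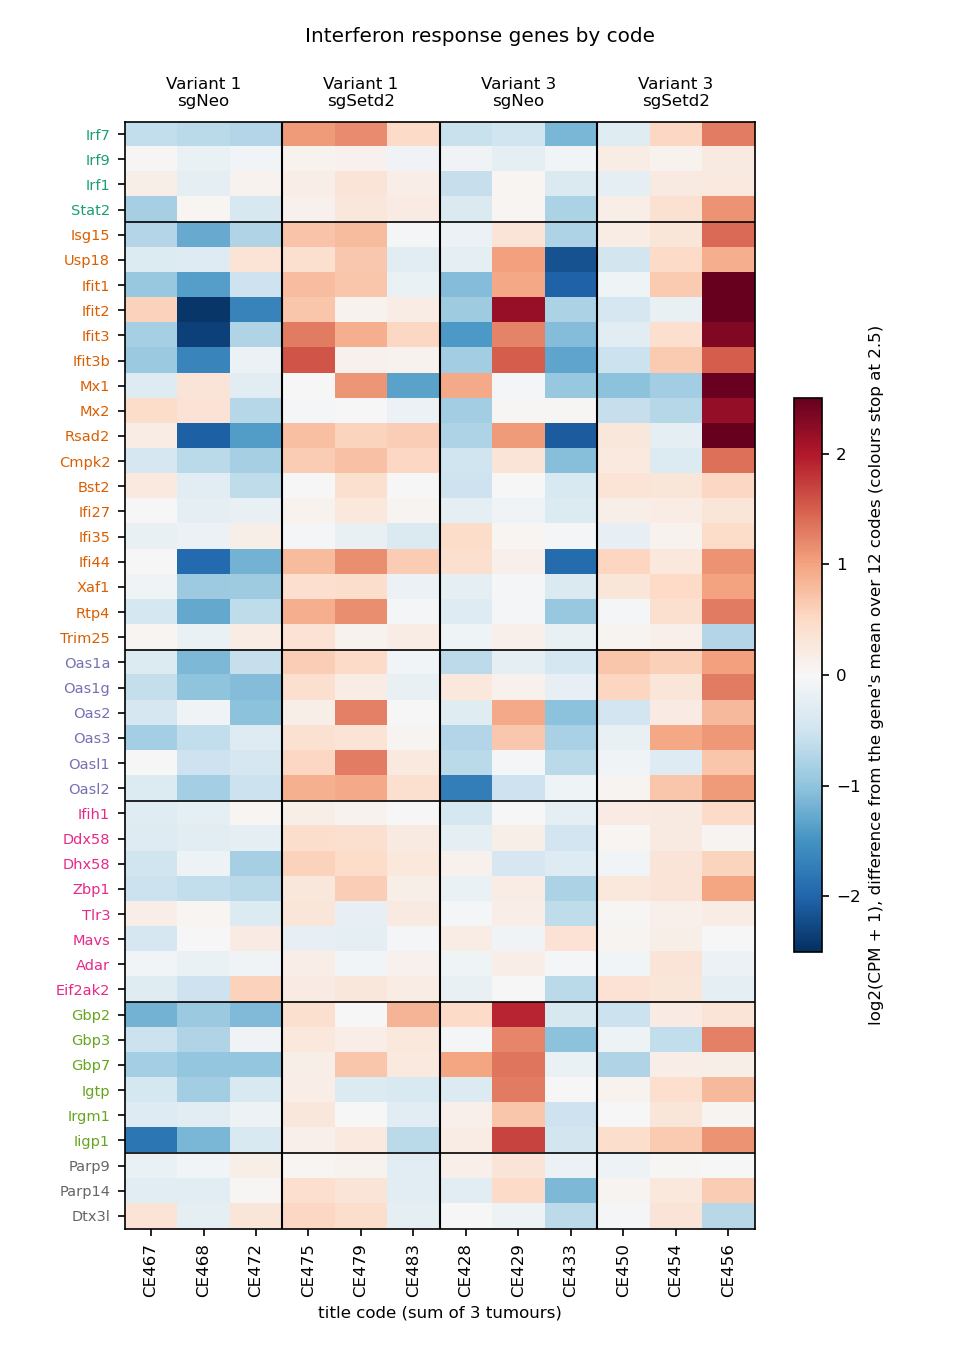
Level of the 44 members in the 12 title codes, as the log2(CPM + 1) of each code minus the gene's mean over codes, with members ordered by role and codes by group. Red is higher and blue lower; most members are blue in the sgNeo codes and red in the sgSetd2 codes, with CE456 the reddest for Ifit1, Mx1 and Rsad2 and with CE429, an sgNeo code, red for the IFITs and the GTPases.

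Among the transcription factors, Irf7 changed most. It is the factor that amplifies type I interferon genes and is itself a target of the pathway (chr7:141262706-141266481, GRCm38, minus strand). Its levels by code were 4.99, 4.75 and 4.55 CPM in Variant 1 sgNeo and 18.3, 19.8 and 11.8 CPM in Variant 1 sgSetd2. In Variant 3 they were 5.22, 5.503 and 3.16 CPM with sgNeo and 6.41, 12.2 and 21.1 CPM with sgSetd2. Every sgSetd2 code lay above every sgNeo code of its variant. Single tumours were more spread, from 4.18 through a median of 14.8 to 47.0 CPM in Variant 1 sgSetd2, against 2.21, 4.86 and 6.57 CPM in Variant 1 sgNeo, so the lowest sgSetd2 tumour fell inside the sgNeo range. In Variant 3 the sgNeo tumours ran from 1.89 through 3.69 to 6.82 CPM and the sgSetd2 tumours from 5.98 through 11.1 to 42.5 CPM. The averaged log2 fold change was 1.66 with SE 0.27 (adjusted p = 0.00539, edgeR), which is 3.16-fold, and it was 1.80 in Variant 1 (adjusted p = 0.0486) and 1.52 in Variant 3 (adjusted p = 0.0833). The gene ends overlap those of Phrf1 on the opposite strand by 45 bases, and reads there cannot be assigned without strand.

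Stat2, the transactivating part of the ISRE-binding complex (chr10:128270559-128292849, plus strand), showed a smaller difference. It stood at 16.5, 30.9 and 22.6 CPM in Variant 1 sgNeo and at 32.6, 36.7 and 34.8 CPM in Variant 1 sgSetd2. Variant 3 codes stood at 23.3, 31.3 and 17.1 CPM with sgNeo and at 33.8, 39.7 and 66.3 CPM with sgSetd2. The codes did not overlap in either variant, while the tumours did: the medians were 26.7 and 33.6 CPM in Variant 1 and 20.1 and 42.4 CPM in Variant 3, and the highest Variant 1 sgNeo tumour reached 47.4 CPM. Stat2 rose by 0.77 on the log2 scale with SE 0.21 in the averaged contrast (adjusted p = 0.0479, edgeR). Its promoter holds 1 ISRE core, which begins at -222. The other members of the group, Irf9, the DNA-binding part of that complex, and Irf1, a gamma-responsive factor, had averaged log2 differences of 0.21 and 0.29 (adjusted p = 0.131 and 0.205, edgeR) and did not pass.

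The effector group was the most variable. Isg15, a ubiquitin-like protein that is conjugated to other proteins during the response (chr4:156199424-156200818, minus strand), was measured at 3.45, 2.09 and 3.39 CPM in Variant 1 sgNeo and at 11.2, 11.9 and 6.17 CPM in Variant 1 sgSetd2. In Variant 3 the values were 5.74, 8.34 and 3.36 CPM with sgNeo and 7.51, 8.14 and 18.8 CPM with sgSetd2. The codes were separate in Variant 1 and overlapped in Variant 3, where CE456 was far above the other codes of its group. By tumour, the lowest, median and highest were 0.773, 2.89 and 5.49 CPM against 3.09, 10.1 and 25.003 CPM in Variant 1, and 1.06, 4.46 and 10.7 CPM against 4.34, 8.47 and 42.6 CPM in Variant 3. Isg15 rose by 1.35 with SE 0.31 on the log2 scale in the averaged contrast, 2.54-fold (adjusted p = 0.0260, edgeR).

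Rtp4, a chaperone of membrane receptors that interferon induces (chr16:23520291-23614222, plus strand), had a similar pattern. Its sgNeo codes lay at 8.10, 4.10 and 6.94 CPM in Variant 1 and at 8.95, 10.996 and 5.405 CPM in Variant 3. The sgSetd2 codes lay at 22.4, 26.9 and 10.97 CPM in Variant 1 and at 11.04, 15.4 and 29.6 CPM in Variant 3. No sgSetd2 code fell below an sgNeo code of its variant, but in Variant 3 the highest sgNeo and the lowest sgSetd2 code were nearly equal. Tumour medians were 6.99 and 17.2 CPM in Variant 1 and 6.38 and 17.3 CPM in Variant 3, with highest tumours of 15.2, 41.2, 13.3 and 41.3 CPM in the order of the groups. The averaged log2 fold change was 1.40 with SE 0.31 (adjusted p = 0.0216, edgeR). A processed transcript, Gm45338, overlaps Rtp4 on the same strand and shares 11.2% of its 100-base words, so part of the count may not be its own.

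Cmpk2, a mitochondrial nucleotide kinase that lies beside Rsad2 (chr12:26469204-26479837, plus strand), was at 7.04, 5.78 and 5.06 CPM in Variant 1 sgNeo and at 15.8, 16.8 and 14.3 CPM in Variant 1 sgSetd2. The Variant 3 codes lay at 6.62, 12.4 and 4.16 CPM with sgNeo and at 11.7, 7.49 and 27.1 CPM with sgSetd2. The Variant 1 codes were tight and separate, and the Variant 3 codes overlapped. The tumours ran through medians of 5.88 and 16.2 CPM in Variant 1 and of 5.42 and 10.3 CPM in Variant 3, up to 49.8 CPM in Variant 3 sgSetd2. Cmpk2 rose by 1.19 with SE 0.32 on the log2 scale in the averaged contrast (adjusted p = 0.0478, edgeR).

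Xaf1, a pro-apoptotic antagonist of XIAP (chr11:72301629-72313733, plus strand), was at 10.2, 5.29 and 5.43 CPM in Variant 1 sgNeo and at 14.8, 15.0 and 9.72 CPM in Variant 1 sgSetd2. Variant 3 codes held 9.02, 10.5 and 8.21 CPM with sgNeo and at 13.6, 15.8 and 22.8 CPM with sgSetd2. The codes were separate in Variant 3, and in Variant 1 the highest sgNeo code was just above the lowest sgSetd2 code. Tumours had medians of 6.09, 13.6, 7.38 and 15.2 CPM in the order of the groups. The averaged log2 fold change was 0.92 with SE 0.21 (adjusted p = 0.0250, edgeR), and it was almost the same in both variants, 0.92 and 0.91.

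Ifi27, an interferon-induced mitochondrial protein, had the highest level per length of all members, at a mean of 64.5 CPM per kilobase of exon, and the smallest change of those that passed (chr12:103434211-103440239, plus strand). It was at 94.4, 78.9 and 82.4 CPM in Variant 1 sgNeo and at 100.4, 112 and 98.8 CPM in Variant 1 sgSetd2. Variant 3 codes stood at 80.5, 88.5 and 74.1 CPM with sgNeo and at 104, 106 and 116 CPM with sgSetd2. Both variants separated by code. By tumour the Variant 3 groups were also separate, since the sgNeo tumours ran from 67.6 to 89.1 CPM and the sgSetd2 tumours from 94.2 to 149 CPM, whereas the Variant 1 tumours overlapped. Ifi27 rose by 0.35 with SE 0.08 on the log2 scale, 1.28-fold (adjusted p = 0.0244, edgeR).

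The other 12 effectors did not pass, although their averaged log2 differences reached from -0.08 to 2.04. They were Usp18, which removes ISG15; Ifit1, Ifit2, Ifit3 and Ifit3b, which bind foreign RNA; the antiviral GTPases Mx1 and Mx2; Rsad2 (viperin); Bst2 (tetherin); Ifi35; Ifi44; and Trim25, a ubiquitin ligase that activates RIG-I. Several of them differed widely between codes. Ifit1 was at 9.82 and 17.3 CPM in CE450 and CE454 and at 101.1 CPM in CE456, all Variant 3 sgSetd2, and at 4.54, 21.9 and 1.85 CPM in the Variant 3 sgNeo codes. In Variant 1 it was at 5.09, 3.50 and 7.11 CPM with sgNeo and at 18.9, 17.9 and 9.39 CPM with sgSetd2. Its averaged log2 difference was 1.87 with SE 0.66 (adjusted p = 0.111, edgeR). Within CE456 the 3 tumours held 199.5, 113.6 and 21.2 CPM of Ifit1, and Rsad2 was at 56.1, 46.5 and 0.0163 CPM in the same tumours. Ifit3 and Ifit3b share 31.7% of the 100-base words of Ifit3, so their separate counts are uncertain.

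**Figure D3:**
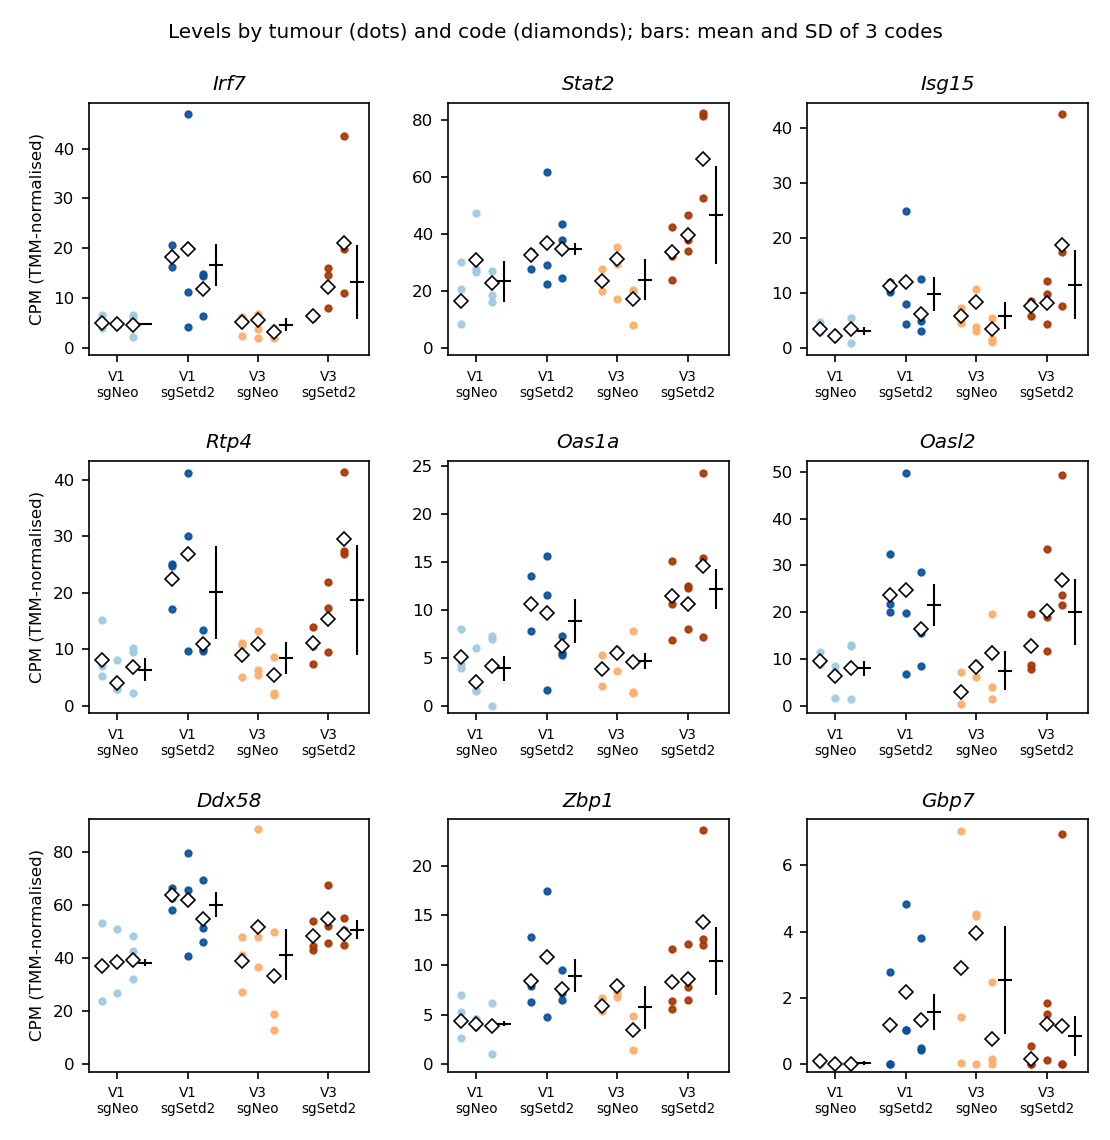
Levels in CPM of 9 members by tumour (dots), by code (diamonds) and by group (mean and SD of 3 codes at the right of each group). The sgSetd2 codes are above the sgNeo codes of their variant for Irf7, Stat2, Rtp4, Oas1a, Oasl2 and Zbp1, by a small margin for Rtp4 in Variant 3. A single high tumour stands out for Irf7 and Oasl2 in both sgSetd2 groups, and the Gbp7 codes of Variant 1 sgNeo lie at or near 0.

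The OAS enzymes sense double-stranded RNA and make the oligoadenylate messenger that activates RNase L, and the family also holds OAS-like proteins. All 6 genes had positive averaged log2 values and 3 passed. Oas1a (chr5:120896256-120907521, minus strand) was at 5.05, 2.51 and 4.14 CPM in Variant 1 sgNeo and at 10.6, 9.65 and 6.23 CPM in Variant 1 sgSetd2. The Variant 3 codes lay at 3.87, 5.52 and 4.62 CPM with sgNeo and at 11.4, 10.6 and 14.5 CPM with sgSetd2. The codes of the guides were separate in both variants, by the wider margin in Variant 3. Tumour medians were 4.31 and 7.85 CPM in Variant 1 and 4.10 and 12.3 CPM in Variant 3, and the ranges overlapped in both, with highest sgNeo tumours of 7.98 and 7.77 CPM and lowest sgSetd2 tumours of 1.70 and 6.84 CPM. The averaged log2 fold change was 1.28 with SE 0.21 (adjusted p = 0.00573, edgeR), and the one of Variant 3 alone was 1.382 (adjusted p = 0.0499).

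Oas1g (chr5:120876142-120887613, minus strand), the neighbour of Oas1a, was at 1.33, 0.752 and 0.668 CPM in Variant 1 sgNeo and at 3.64, 3.00 and 2.09 CPM in Variant 1 sgSetd2. Variant 3 codes held 3.25, 2.77 and 2.04 CPM with sgNeo and at 4.10, 3.35 and 7.64 CPM with sgSetd2. The codes did not overlap in either variant, and the Variant 3 sgNeo codes also lay above the Variant 1 sgNeo codes. Single tumours overlapped, with medians of 0.840, 2.93, 2.61 and 4.68 CPM in the order of the groups. Oas1g rose by 1.29 with SE 0.30 (adjusted p = 0.0264, edgeR). The longest transcript of Oas1a shares 40.9% of its 100-base words with Oas1g, so reads may be split between them.

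Oasl2 (chr5:114896936-114912234, plus strand), an OAS-like protein with a ubiquitin-like part, was at 9.51, 6.36 and 8.17 CPM in Variant 1 sgNeo and at 23.6, 24.7 and 16.5 CPM in Variant 1 sgSetd2. In Variant 3 it was at 3.01, 8.32 and 11.3 CPM with sgNeo and at 12.9, 20.3 and 26.9 CPM with sgSetd2. No codes overlapped within a variant. The tumours overlapped, with medians of 8.97 and 20.1 CPM in Variant 1 and 6.28 and 19.6 CPM in Variant 3. Its log2 fold changes were 1.43 and 1.41 in Variant 1 and Variant 3 and 1.42 with SE 0.29 when averaged (adjusted p = 0.0159, edgeR). The remaining Oas2, Oas3 and Oasl1 were low, at group means of 0.194 to 3.41 CPM, and had averaged log2 differences of 1.19, 1.36 and 2.23 with adjusted p = 0.621, 0.135 and 0.270 (edgeR).

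Of the sensors, the 3 RIG-I-like receptors that bind viral RNA were Ddx58 (RIG-I), Ifih1 (MDA5) and Dhx58 (LGP2). Ddx58 (chr4:40203773-40239828, minus strand) was at 37.1, 38.6 and 39.3 CPM in Variant 1 sgNeo and at 63.7, 61.8 and 54.7 CPM in Variant 1 sgSetd2. The Variant 3 codes lay at 39.1, 51.7 and 33.1 CPM with sgNeo and at 48.4, 54.7 and 49.0 CPM with sgSetd2. The Variant 1 codes were separate by a margin larger than their spread, and in Variant 3 the sgNeo code CE429 lay inside the sgSetd2 range. Tumour medians were 38.2 and 62.6 CPM in Variant 1 and 41.3 and 50.7 CPM in Variant 3, and the highest of all 36 tumours, 88.5 CPM, was a Variant 3 sgNeo tumour. Ddx58 rose by 0.47 with SE 0.11 on the averaged log2 scale (adjusted p = 0.0231, edgeR). Ifih1 differed by 0.38 and missed the threshold (adjusted p = 0.0505).

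Dhx58 (chr11:100694884-100704271, minus strand) was at 3.02, 4.21 and 2.21 CPM in Variant 1 sgNeo and at 7.52, 6.87 and 5.87 CPM in Variant 1 sgSetd2. Variant 3 codes held 5.13, 3.27 and 3.53 CPM with sgNeo and at 4.42, 6.10 and 7.39 CPM with sgSetd2. The Variant 1 codes were separate and the Variant 3 codes overlapped. Tumour medians were 3.19, 7.06, 3.77 and 4.73 CPM in the order of the groups. Dhx58 rose by 0.84 with SE 0.22 (adjusted p = 0.0424, edgeR), and an antisense gene, Dhx58os, overlaps it, so its count is uncertain.

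Zbp1, a sensor of left-handed nucleic acid that can start necroptosis (chr2:173206612-173218923, minus strand), was at 4.32, 4.04 and 3.83 CPM in Variant 1 sgNeo and at 8.35, 10.8 and 7.61 CPM in Variant 1 sgSetd2. In Variant 3 it was at 5.88, 7.85 and 3.48 CPM with sgNeo and at 8.25, 8.61 and 14.3 CPM with sgSetd2. The codes were separate in both variants. Tumours had medians of 4.53 and 7.84 CPM in Variant 1 and 5.799 and 11.6 CPM in Variant 3, with ranges that overlapped. Zbp1 rose 1.99-fold in the averaged contrast, by 1.00 with SE 0.23 on the log2 scale (adjusted p = 0.0231, edgeR). The endosomal receptor Tlr3, the adaptor Mavs, the editing enzyme Adar and the kinase Eif2ak2 (PKR) did not pass, at averaged log2 differences of 0.21, -0.10, 0.12 and 0.34.

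The interferon-inducible GTPases attack the vacuoles of intracellular pathogens and respond strongly to interferon gamma. None of the 6 passed in the averaged contrast or within a variant. All 6 had positive log2 differences between the guides in Variant 1, whereas in Variant 3 the signs were 2 positive and 4 negative. Gbp7 and Gbp2 were the lowest in Variant 3, at -1.58 and -1.10. Gbp7 (chr3:142530342-142550149, plus strand) was at 0.0921, 0 and 0 CPM in the Variant 1 sgNeo codes, which is 9 counts in all, and at 1.18, 2.19 and 1.33 CPM in Variant 1 sgSetd2. The Variant 3 codes lay at 2.91, 3.96 and 0.749 CPM with sgNeo and at 0.163, 1.21 and 1.17 CPM with sgSetd2. The sgSetd2 codes were thus above every sgNeo code in Variant 1, and the codes overlapped in Variant 3, where 2 of 3 sgNeo codes were the highest. By tumour, 1 of 9 Variant 1 sgNeo tumours had any count, at 0.181 CPM, whereas medians were 1.04 CPM in Variant 1 sgSetd2, 1.42 CPM in Variant 3 sgNeo and 0.118 CPM in Variant 3 sgSetd2. The interaction of guide and variant was -7.32 on the log2 scale with SE 1.86 and an adjusted p of 0.584 (edgeR), so the difference between the variants did not pass. A pseudogene on the same strand, Gm43802, shares 9.76% of the 100-base words of Gbp7.

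Gbp2 ran the same way, at 1.00, 1.37 and 1.10 CPM in Variant 1 sgNeo, at 4.99, 3.50 and 7.11 CPM in Variant 1 sgSetd2, at 5.33, 15.9 and 2.41 CPM in Variant 3 sgNeo and at 2.13, 4.19 and 4.68 CPM in Variant 3 sgSetd2. Its interaction was -3.27 with SE 0.83 (adjusted p = 0.584, edgeR). All 6 GTPases had a negative interaction value, with a median of -1.16, against 0.04 over all genes tested. For the 44 members the interaction median was -0.21, 27 were negative, and 0 passed, where 0% of all genes did. At an unadjusted p under 0.05, 2 members and 1200 of all genes were found. The highest Variant 3 sgNeo code for these genes was CE429, whose tumour 2 held 186.4 CPM of Iigp1 and 58.2 CPM of Igtp. Igtp overlaps the annotated span of Irgm2 by 7974 bases on the same strand, so their counts may be mixed.

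**Figure D4:**
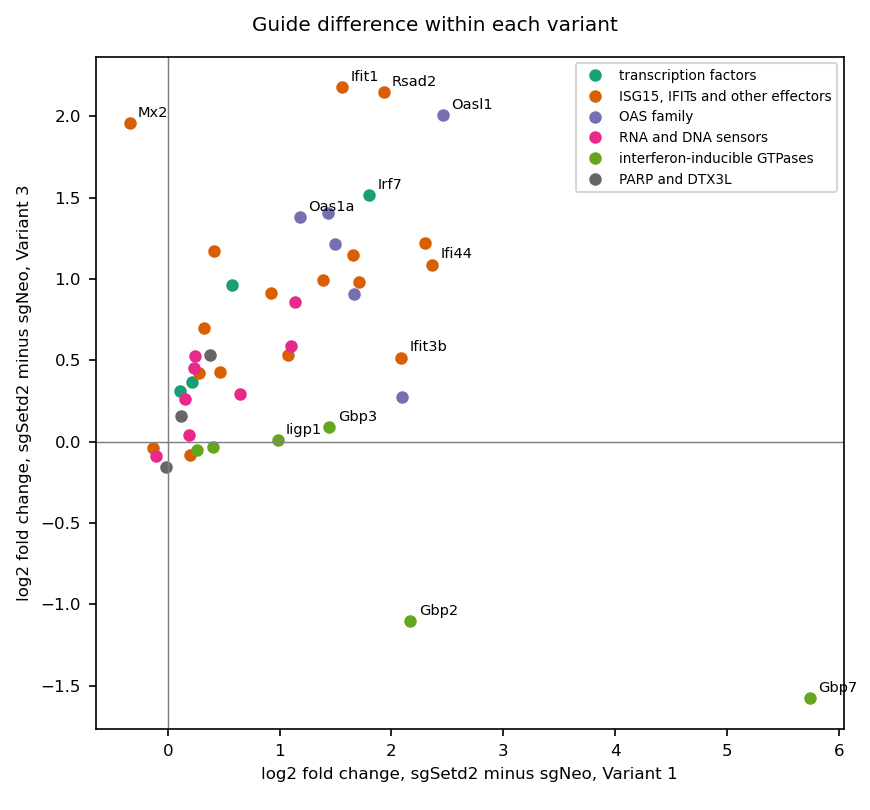
Log2 fold change of sgSetd2 minus sgNeo for each of the 44 members in Variant 1 (horizontal) and Variant 3 (vertical), coloured by role; the axes use separate sets of tumours. Most members lie in the upper right, and the 6 GTPases lie between -1.58 and 0.09 on the vertical axis, with Gbp7 at 5.74 and -1.58 and Gbp2 at 2.17 and -1.10.

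In the PARP and DTX3L group, whose proteins add ADP-ribose or ubiquitin during antiviral signalling, no member passed. Parp14 had the smallest p (chr16:35832874-35871544, minus strand). It was at 14.6, 14.5 and 18.1 CPM in Variant 1 sgNeo, at 24.1, 22.6 and 14.5 CPM in Variant 1 sgSetd2, at 14.4, 25.3 and 7.66 CPM in Variant 3 sgNeo and at 18.7, 21.6 and 28.1 CPM in Variant 3 sgSetd2. The codes overlapped in both variants, and the averaged log2 difference was 0.45 with SE 0.25 (adjusted p = 0.317, edgeR). Parp9 and Dtx3l, which start next to each other and overlap by 682 bases on opposite strands, had averaged values of -0.09 and 0.14.

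Between the variants under the same guide, no member passed. With sgNeo, the median log2 difference (Variant 3 minus Variant 1) of the members was 0.30, against -0.02 over all genes, and 31 of 44 were positive. The call rule found 0 members and 0.005% of all genes, and at an unadjusted p under 0.05 there were 6 members and 2080 of all genes. All 3 Variant 3 sgNeo codes lay above all 3 Variant 1 sgNeo codes for Oas1g, Gbp2, Gbp7 and Igtp, which is 4 of 44 members beside 6.83% of all genes. Oas1g had a log2 difference of 1.55 with SE 0.43 (adjusted p = 0.316, edgeR). Leaving out CE429 turned the members' median to -0.13. With sgSetd2 the median was 0.12, against 0.03 over all genes, and 0 members were called where 0.13% of all genes were, with 0 members and 1940 of all genes at an unadjusted p under 0.05.

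The median spread of the members between samples was larger than that of all genes tested, with no matching for level. The median SD between codes of a group was 0.459 on the log2(CPM + 1) scale for the 44 members and 0.238 for all genes tested. Between the tumours of a code it was 0.575 and 0.337. The effector group was the most spread between codes, with a median SD of 0.845, and the sensors the least, at 0.243. The mean of the 44 members on the same scale was 3.26, 2.94 and 3.18 in the Variant 1 sgNeo codes and 4.01, 4.02 and 3.65 in the Variant 1 sgSetd2 codes. In Variant 3 it was 3.34, 4.02 and 2.94 with sgNeo and 3.57, 3.82 and 4.502 with sgSetd2. CE429 thus stood as high as sgSetd2 codes, while CE450 was the lowest sgSetd2 code. A summed code weights its tumours by depth, and CE429 was weighted towards its tumour 2, which had 137.2 M counts. That tumour had a member mean of 4.19, whereas tumours 1 and 3 of CE429 had 3.51 and 3.28. Tumour 6 of CE456 had the highest mean of the 36 tumours, 5.12, and tumour 4 of CE468 the lowest, 2.62.

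Cell-cycle genes were lower in part of the sgSetd2 tumours. Of 26 such genes, 4 fell in the averaged contrast and 4 in Variant 1, and 0 in Variant 3 (edgeR). Over all 20009 genes tested, 726, 144 and 123 fell in these contrasts. All 26 had a negative value in Variant 1, 25 of them with an unadjusted p under 0.05, and in Variant 3 18 were negative. Their mean on the log2(CPM + 1) scale was 4.63, 4.58 and 4.63 in the Variant 1 sgNeo codes and 3.22, 3.34 and 2.83 in Variant 1 sgSetd2. In Variant 3 it was 4.45, 3.45 and 4.28 with sgNeo and 4.44, 3.31 and 3.74 with sgSetd2. So it was lower in every sgSetd2 code of Variant 1, and overlapped in Variant 3. Tumour 2 of CE472, with the highest cell-cycle mean of 5.52, had a member mean of 2.64, and tumour 4 of the same code, with the lowest of 1.95, had 3.35. With the cell-cycle mean as a covariate in the averaged contrast, 0 of 44 members and 38 of all genes were called, and the members' median fell from 0.78 to 0.28. In Variant 1 the median became -0.06 from 0.95. By code, the guide and the cell-cycle level cannot be told apart in Variant 1, where the codes of the guides overlapped neither in the cell-cycle mean nor in the member mean. By tumour the Variant 1 cell-cycle means did overlap, at 1.95 to 5.52 with sgNeo and 2.40 to 3.62 with sgSetd2. The member means of these tumours were 2.62 to 3.35 and 3.18 to 4.44. The guide difference between tumours of like cell-cycle level was not tested.

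**Figure D5:**
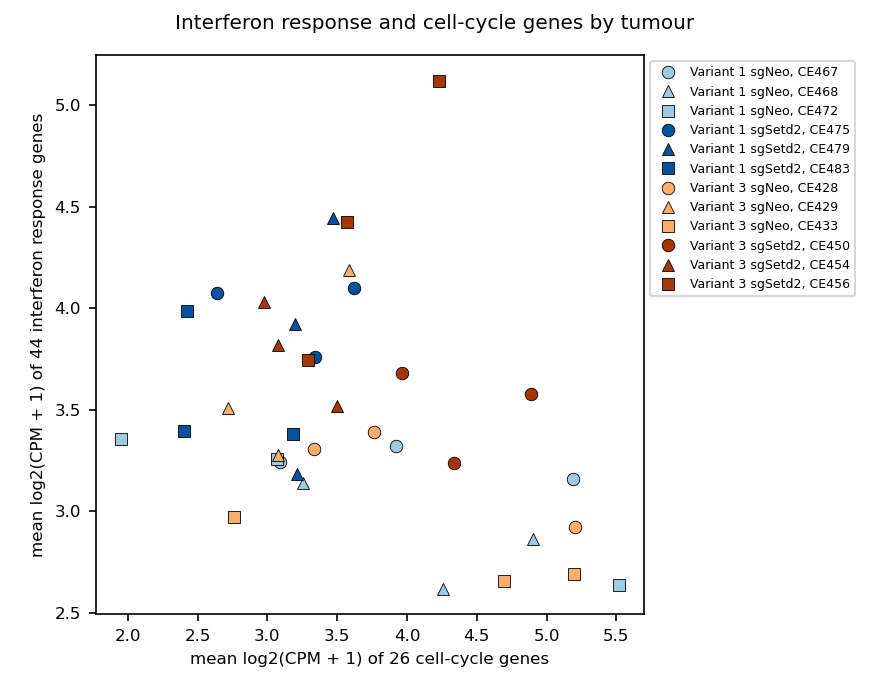
Mean log2(CPM + 1) of the 44 members against that of 26 cell-cycle genes in the 36 tumours, coloured by group with a symbol per code. The sgNeo tumours with the highest cell-cycle means, 5.52, 5.21 and 5.19, have member means of 2.64 to 3.16, and the sgSetd2 tumours have member means from 3.18 to 5.12.

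Markers of other cells were measured beside the members. The summed level of 14 macrophage markers ran from 136.4 to 363.0 CPM in Variant 1 sgNeo tumours and from 260.2 to 404.8 CPM in Variant 1 sgSetd2 tumours, and from 174.9 to 286.3 and from 261.8 to 403.4 CPM in Variant 3. Nearly all of it was Cd14, which rose by 0.57 with SE 0.14 (adjusted p = 0.0344, edgeR) and which is not restricted to macrophages. Of the 14 markers, 6 were below a mean of 0.1 CPM, namely Adgre1, Fcgr1, C1qa, C1qb, C1qc and Siglecf. Adgre1 belongs to the markers that had been set as defining macrophages. The others of that set, Ptprc, Csf1r, Cd68 and Marco, were not among the 6. The 8 neutrophil markers summed to 0 to 1.67 CPM in Variant 1 sgNeo tumours and 0 to 10.3 CPM in Variant 1 sgSetd2 tumours. In Variant 3 every sgSetd2 tumour, at 5.41 to 26.9 CPM, lay above every sgNeo tumour, at 0 to 4.19 CPM. In Variant 3 sgSetd2 it was mostly the receptor gene Cxcr2, with a mean of 9.37 CPM. Cxcr2 was the 1 of 4 tested neutrophil genes that rose in the averaged contrast, where 3.72% of all genes rose. S100a9, Ly6g, Csf3r and Camp were below 0.1 CPM. The 9 dendritic cell markers summed to medians of 5.84 and 8.12 CPM in Variant 1 (sgNeo, then sgSetd2) and of 4.39 and 7.37 CPM in Variant 3, with overlapping ranges. Of 6 tested, 1 rose in the averaged contrast, Batf3, beside the same 3.72% of all genes. The 8 fibroblast markers summed to medians of 6.52 and 24.1 CPM in Variant 1 and of 11.9 and 43.4 CPM in Variant 3. Their ranges overlapped widely, from 0.535 to 424.5 CPM in Variant 1 sgNeo alone, and none of the 8 passed. The part of these cells in the member results was not tested beyond the next fit. With the macrophage mean as a covariate, 10 of 44 members passed in the averaged contrast. This covariate was the mean log2(CPM + 1) of the 14 markers. It was 1.04, 1.56 and 0.912 in the Variant 1 sgNeo codes and 0.874, 1.01 and 0.976 in Variant 1 sgSetd2. In Variant 3 it was 1.02, 1.07 and 0.991 with sgNeo and 1.04, 1.18 and 1.09 with sgSetd2. The codes of the guides overlapped in both variants, so this fit did not adjust for the difference in the summed level. By the level of the Y-linked gene Ddx3y, 0, 1, 2 and 1 of the 3 codes were male in the order of the groups. With sex as a covariate, 11 members passed. Counts over all genes are not given here for the macrophage and sex fits.

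Upstream of the members, interferon transcripts were near the limit of detection in these sorted neoplastic cells. Interferon made by other cells of the tumours was not measured. Of 21 interferon genes, 15 had no count in any of the 36 tumours, where 3 counts over all tumours would be 0.00175 CPM. Ifnb1 had 6 counts in total, Ifng none, and no group mean of any interferon gene was above 0.134 CPM, the value of Ifnk in Variant 3 sgSetd2. Summed over the 21 genes, all 9 Variant 3 sgSetd2 tumours had counts, at 0.101 to 0.661 CPM with a median of 0.305 CPM. The median was 0 in the other 3 groups, whose highest tumours reached 0.316, 0.141 and 0.323 CPM (Variant 1 sgNeo, Variant 1 sgSetd2 and Variant 3 sgNeo), so the ranges overlapped. This sum was not tested. The receptors were present. Of 14 receptor and JAK-STAT genes, with a median of 0.12, 3 rose and 0 fell in the averaged contrast, where 3.72% of all genes rose. Ifngr1 and Ifngr2, the chains of the gamma receptor, rose by 0.74 and 0.34 (adjusted p = 0.00359 and 0.0473, edgeR), and Ifnlr1, the specific chain of the lambda receptor, by 0.56 (adjusted p = 0.0441). Ifngr1 was at 71.4 ± 7.26 and 127 ± 9.15 CPM in Variant 1 and at 59.0 ± 12.04 and 92.5 ± 12.1 CPM in Variant 3 (SD, n = 3 codes). The type I receptor genes Ifnar1 and Ifnar2 differed by -0.02 and 0.02 and did not pass.

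Of 14 tested genes for nucleic acid sensing and IRF3 activation, 1 rose in the averaged contrast, where 3.72% of all genes did. That gene, the adaptor Myd88, rose by 0.47 with SE 0.10 (adjusted p = 0.0163, edgeR). The kinase gene Ikbke had an averaged difference of 1.28 (adjusted p = 0.0504). Among 14 tested genes that limit such sensing, by degrading nucleic acid or silencing repeats, 2 fell and 0 rose, with a median of -0.30, where 726 of all 20009 genes fell. Dnase2a, a lysosomal DNase, fell by 0.59 with SE 0.09 (adjusted p = 0.00301, edgeR). It was at 44.02 ± 2.86 and 32.4 ± 4.39 CPM in Variant 1 and at 66.3 ± 2.68 and 39.9 ± 3.29 CPM in Variant 3, where it also passed alone (adjusted p = 0.0153). Trim28, a corepressor of repeat elements, fell by 0.32 (adjusted p = 0.0291). Trex1 had no count in any tumour, among 1713 M counts. How reads were counted is not given, so whether its transcript was absent cannot be said.

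Interferon-stimulated genes outside the 44 were read from a further list, which like the members was chosen with earlier results of these data known. Of 49 tested, 10 rose and 0 fell in the averaged contrast, where 3.72% of all genes rose. The median of the 49 was 0.58 and 42 values were positive. The 10 were Slfn2, Ifitm3, Isg20, Samd9l, Ube2l6, Psmb8, Psmb9, Tap1, Tor3a and Phf11d. Psmb8, Psmb9 and Tap1 serve antigen processing for MHC class I and rose by 0.63, 0.83 and 0.90. Slfn2, a growth regulator of immune cells, had the largest fold change of the 10, at 1.80 with SE 0.25 (adjusted p = 0.00223, edgeR), and passed in Variant 1 and in Variant 3 alone (adjusted p = 0.0461 and 0.0259). It was at 7.01 ± 2.59 and 22.4 ± 7.10 CPM in Variant 1 and at 12.4 ± 4.67 and 47.1 ± 9.32 CPM in Variant 3. Ifitm3, which blocks viral entry, was at 23.5 ± 6.03 and 107 ± 44.001 CPM in Variant 1 and at 45.7 ± 7.37 and 62.1 ± 21.1 CPM in Variant 3, and passed alone in Variant 1 (adjusted p = 0.0154). The chemokine genes Cxcl9 and Cxcl10, which draw T cells, did not pass.

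The count of 13 members depends on single codes, though each fit without a code also had fewer codes for every gene. Counts over all genes are not set beside them here, so the member counts alone do not tell a loss particular to the members from a general loss. Without CE475 it was 3, without CE428, CE433 or CE468 it was 5, without CE472 it was 8, and without CE429 it was 17. Leaving out 1 tumour gave 5 without tumour 2 of CE472, 8 without tumour 1 of CE467 or tumour 3 of CE433, and 10 to 15 otherwise. Irf7, Oas1a and Oasl2 passed in all 12 fits without a code and in all 36 without a tumour. Cmpk2, Stat2 and Dhx58, which lie near the threshold, lost the call in 10, 9 and 9 of the 12 fits without a code, Ifi27 in 7, Xaf1 in 5, Ddx58, Isg15, Oas1g and Rtp4 in 4 each, and Zbp1 in 3.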

How the data were processed

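RNA of EGFP-positive neoplastic cells from 36 tumours was isolated with the PicoPure kit, made into SMART-Seq mRNA libraries and sequenced on a NovaSeq, per the labels' protocols. The authors deposited raw read counts per gene. The submitters' processing notes name STAR 2.5.3a, R 4.2 and DESeq2 1.38.3. How reads were counted, with or without strand, and against which build or annotation is not given in the sources used here.

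The counts of the 3 tumours of a title code were summed, giving 12 codes, so a deeper tumour weighs more in the value of its code. Genes were filtered with filterByExpr, which left 20009, scaled by TMM and tested with glmQLFit (robust) and glmQLFTest of edgeR 4.0.16 in R 4.3.3, over all 4 groups and with Benjamini-Hochberg adjustment over all genes tested (threshold 0.05). The SE was taken as the absolute log2 fold change over the root of the F statistic. The averaged contrast is the mean of the Variant 1 and Variant 3 guide differences. limma 3.58.1 and DESeq2 1.42.0 served as alternatives, beside other scalings, filters, covariates and leaving out codes or tumours. Leaving out 4 tumours with Col1a1 above 10 CPM was chosen after seeing the data. Simulated counts with known changes were used to test the edgeR fit of the averaged contrast only.

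The members and the gene lists were chosen with earlier results of these data known. Members described in full were those called in any of the 6 contrasts and the one with the smallest p of each role. Gene coordinates are from GENCODE M21 (GRCm38); promoters are RefSeq sequences of GRCm38.p6. CPM depth is 17.9 to 137.2 M counts per tumour.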

Additional observations from a re-analysis of the deposited data

Results flagged for a closer look

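In 24 of the 176 combinations of a member and a group, 1 tumour stood apart from the other 8 on the log2(CPM + 1) scale: its gap to the nearest tumour, divided by the range of the group, was above Dixon's 95% critical value of 0.493. For independent, normally distributed values chance gives about 1 in 20. Here tumours shared codes, some values were 0, and several flags fell on the same tumour, so the count cannot be set against that share. The cause of these gaps was not tested.

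In Variant 1 sgNeo, tumour 4 of CE468 was lowest for 5 members. For Igtp it had 3.71 CPM where the others had 11.4 to 17.8 CPM (ratio 0.699), and the ratios were 0.566 for Irgm1, 0.504 for Iigp1, 0.552 for Parp9 and 0.625 for Dtx3l. Tumour 2 of CE472 was lowest for Irf7 (ratio 0.494) and for Bst2, with 7.58 CPM against 20.4 to 40.4 CPM (ratio 0.582). For Gbp7, tumour 1 of CE467 was the one with any count, at 0.181 CPM, which gives a ratio of 1.

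In Variant 1 sgSetd2, tumour 2 of CE479 was highest for Oas2, with 9.93 CPM against 0.537 to 1.97 CPM (ratio 0.664), and for Eif2ak2 (ratio 0.609). Tumour 4 of CE479 was lowest for Gbp2, with 0.452 CPM against 3.86 to 9.96 CPM (ratio 0.598), and tumour 3 of CE483 was lowest for Parp14 (ratio 0.522).

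In Variant 3 sgNeo, tumour 1 of CE433 was lowest for Stat2, with 7.99 CPM against 17.1 to 35.3 CPM (ratio 0.5), for Oas1g (ratio 0.511) and for Zbp1 (ratio 0.497). Tumour 3 of the same code was lowest for Tlr3 (ratio 0.505) and tumour 2 for Parp9 (ratio 0.523). Tumour 2 of CE428 was lowest for Bst2 (ratio 0.583), and tumour 2 of CE429 was highest for Oasl1, with 0.781 CPM against 0 to 0.251 CPM (ratio 0.612).

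In Variant 3 sgSetd2, all 5 such values belonged to tumour 6 of CE456, which was highest each time. It had 18.5 CPM of Ifi44 where the others had 2.74 to 6.62 CPM (ratio 0.569), and the ratios were 0.518 for Ifi27, 0.499 for Oas2, 0.502 for Oasl1 and 0.497 for Gbp7.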

How the results depend on the processing

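The count of 13 members called in the averaged contrast stayed between 9 and 19 under every alternative of scaling, filter, tool and covariate except the cell-cycle covariate, under which it was 0. Leaving out 1 code or 1 tumour gave 3 to 17. In Variant 1, where 1 member passed, the count was 2 with upper-quartile scaling or without the tumours of Col1a1 above 10 CPM, 3 with the stricter filter, 4 with limma voom on tumours or with only the groups compared, 7 with edgeR on the 36 tumours and 13 with DESeq2. It was 0 with limma on the means per code and with the macrophage, cell-cycle or sex covariate, and 0 to 2 when a code or tumour was left out. In Variant 3, where 1 passed, it was 3 with limma on the means per code, 4 with limma voom, 6 with DESeq2 and 12 with edgeR on the tumours, 0 with the cell-cycle or sex covariate, with only the groups compared and without the Col1a1 tumours, and 0 to 1 when a code or tumour was left out. The single member called was lost with limma voom and with limma on the means per code in both variants (Irf7 in Variant 1, Oas1a in Variant 3), so the members called there were other ones. For the variants under sgNeo, where 0 passed, it was 4 with DESeq2, 2 with edgeR on the tumours and 1 without the Col1a1 tumours, and for the interaction it was 2 with DESeq2. Tests on the 36 tumours treat tumours of a code as separate samples where no block is used. The cause of these shifts was not tested. Counts over all genes are not given beside them here, so the member counts alone do not tell a shift particular to the members from a general shift. No paired analysis was possible because no title code occurs in more than 1 group.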
